A study of Mus musculus with 16 samples.

Results

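The miR-148 and miR-152 family consists of mmu-miR-148a-3p, mmu-miR-148b-3p and mmu-miR-152-3p (the prefix for mouse is left out below), which are 3 of the 1915 mature microRNAs in the count table. They were taken by name, as the mature microRNAs that share a single seed, and all 3 passed the filter on low counts. Small RNA was sequenced from extracellular vesicles (EVs) of bone marrow plasma, captured by the HA tag of the CAGS-Snorkel reporter, which every mouse carried, in mice 6 months old on a C57BL/6N background. The Ocn group held 6 libraries from CAGS-Snorkel//Ocn-Cre mice (3 male and 3 female), and the Prx1 group held 10 libraries from CAGS-Snorkel//Prx1-Cre mice (5 male and 5 female). Ocn-Cre is driven by the osteocalcin promoter, which is active in mature osteoblasts and osteocytes, and Prx1-Cre is active in the early limb bud mesenchyme and therefore also marks its many later descendants. The sex of the mouse behind each library was not given, and libraries from mice without Cre were not analysed here.

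MicroRNAs repress messenger RNAs that pair with the seed, the bases near the 5′ end of the mature strand, so that microRNAs with one seed share many predicted targets. miR-148a is reported to promote the formation of osteoclasts, the cells that resorb bone. miR-148a and miR-152 are also known to repress the DNA methyltransferase DNMT1. miR-148a is abundant in liver and miR-148b is broadly expressed.

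The mature strands are shown because they carry the shared seed and the few bases by which reads of the members can be told apart. They are RefSeq sequences on GRCm38.p6, the assembly also called mm10, written 5′ to 3′ with the seed (bases 2 to 8) in capitals.
miR-148a-3p: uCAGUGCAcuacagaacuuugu
miR-148b-3p: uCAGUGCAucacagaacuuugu
miR-152-3p: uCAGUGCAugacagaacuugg
Of 1679 mature mouse microRNAs in the RefSeq table, these 3 were the ones with this seed, whose reverse complement, the sequence of a matching target site, is UGCACUG. Counted from 1 at the 5′ end, miR-148a-3p and miR-148b-3p differed by C9U and U10C. miR-152-3p, which is 1 base shorter, differed from miR-148b-3p by C10G and U20G. Reads of miR-148a-3p and miR-148b-3p were thus separated by 2 adjacent bases, and how the authors' counting treated mismatches in them is not given in the sources used here.

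The hairpins lie on 3 chromosomes. Mir148a (chr6:51269812-51269910, minus strand) overlapped no other annotated gene, and the nearest was the lincRNA Gm32479, at 13622 bp. Mir148b (chr15:103285125-103285221, plus strand) lies in an intron of Copz1, and Mir152 (chr11:96850393-96850465, plus strand) lies in an intron of Copz2. Copz1 and Copz2 encode paralogous zeta subunits of the COPI vesicle coat. Neither hairpin overlapped an exon of its host, in any of the 4 Copz1 and 3 Copz2 transcripts that span them.

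The opposite strands of the hairpins are shown because one of them was abundant enough to be tested.
miR-148a-5p: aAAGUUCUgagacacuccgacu
miR-148b-5p: gAAGUUCUguuauacacucaggcu
miR-152-5p: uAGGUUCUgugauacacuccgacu
The 5p strands of miR-148a and miR-148b share the seed AAGUUCU, whereas that of miR-152 is AGGUUCU.

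Total counts of a library ran from 582660 to 1536421 in Ocn, against 225273 to 813770 in Prx1, so depth moved with the driver. Levels are given as counts scaled to a library total of 1000000 (CPM). Each count stands for a mature strand of 21 to 24 bases, and no scaling by length was applied, and differences in adaptor ligation between the strands were not tested. The library Ocn 3 stood apart within its group. Its mean distance to the other Ocn libraries (1 minus the Spearman correlation of log2 CPM) was 0.0413, where those of the others ran from 0.0200 to 0.0257. Within Prx1 such distances ran from 0.0263 to 0.0422. Ocn 3 was the highest or the lowest Ocn library for 145 of the 234 microRNAs tested, against 56 to 72 for each other Ocn library. Its total count was the lowest of that group, though that of Ocn 1 was close, at 616811. Results are therefore also given without it. In EVs, fewer vesicles that carry a microRNA and fewer copies per vesicle cannot be told apart.

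mmu-miR-148a-3p was the dominant member in both groups. In Ocn its lowest, median and highest levels were 9573, 11564 and 30059 CPM. In Prx1 they were 9004, 11636 and 16500 CPM. The highest value was that of Ocn 3, at 2.02 times the next Ocn library, and the other 5 Ocn libraries lay within the Prx1 range. Means were 14561 ± 7843 CPM in Ocn (SD, n = 6), against 12196 ± 2762 CPM in Prx1 (SD, n = 10), and the Ocn mean without Ocn 3 was 11462 ± 2200.4 CPM (SD, n = 5). By mean CPM, miR-148a-3p ranked 13 in Ocn and 17 in Prx1 among all microRNAs. Within single libraries it ranked 9 in Ocn 3, 13 to 21 in the other Ocn libraries and 13 to 23 in Prx1. Over all 16 libraries it stood between the endothelial miR-126a-3p (15025 ± 2083 CPM, SD) and miR-21a-5p (12598 ± 2039 CPM, SD). miR-148a-3p, at 13083 ± 5146 CPM (SD), was above miR-126a-3p in 4 of 16 libraries and above miR-21a-5p in 6 of 16, so its place in this order lay within the spread.

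mmu-miR-148b-3p was far less abundant, with 15.9 ± 3.3 counts of miR-148a-3p for each of its own in Ocn (SD, n = 6), against 15.3 ± 4.6 in Prx1 (SD, n = 10). Its lowest, median and highest levels were 654, 783 and 1486 CPM in Ocn. In Prx1 they were 519, 833 and 1139 CPM. The highest library was again Ocn 3, the other 5 Ocn libraries lay within the Prx1 range, and the groups overlapped. The lowest library, Prx1 4, was also the shallowest and held 117 counts of miR-148b-3p, for an exact 95% binomial interval of 429.6 to 622 CPM. Means were 887 ± 303 CPM in Ocn (SD, n = 6), against 832 ± 174 CPM in Prx1 (SD, n = 10). Without Ocn 3 the Ocn mean was 767 ± 82.6 CPM (SD, n = 5).

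mmu-miR-152-3p, from the Copz2 intron, was the member whose groups lay farthest apart for their spread. Its lowest, median and highest levels were 696, 844 and 1306 CPM in Ocn. In Prx1 they were 587, 651 and 970 CPM. All 6 Ocn libraries lay above the Prx1 median and 2 lay above the highest Prx1 library, while 6 of 10 Prx1 libraries lay below the lowest Ocn library. The groups overlapped, as they did for all 3 members, whereas 3.85% of tested microRNAs had groups that did not overlap. Means were 910.3 ± 226 CPM in Ocn (SD, n = 6), against 705 ± 119.7 CPM in Prx1 (SD, n = 10), with 831 ± 129 CPM in Ocn without Ocn 3 (SD, n = 5).

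**Figure D1:**
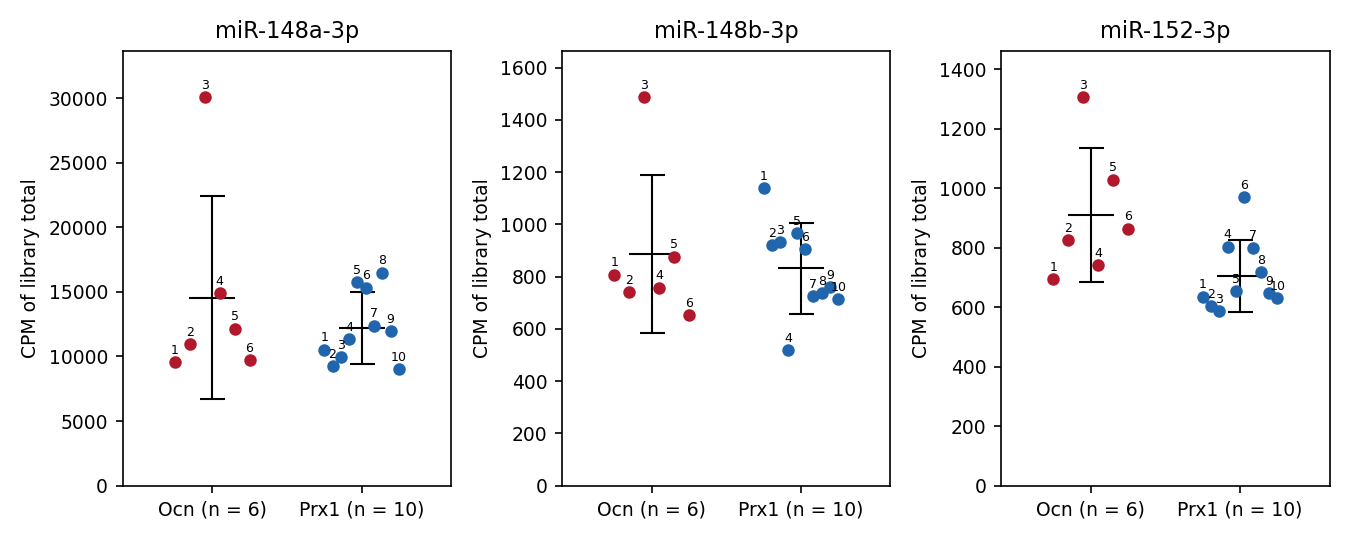
Level of each family member in every library, in CPM of the library total, with Ocn (red, n = 6) left of Prx1 (blue, n = 10). Numbers are replicate numbers and bars are the mean ± SD. Ocn 3 is the highest library in all 3 panels, at 30059, 1486 and 1306 CPM.

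The spread between libraries is set beside the part that counting alone gives. For miR-148a-3p the coefficient of variation was 53.9% in Ocn and 22.6% in Prx1, while counting alone gave 0.952% and 1.52%. For miR-148b-3p it was 34.1% in Ocn and 20.9% in Prx1, against 3.72% and 5.81% from counting. For miR-152-3p it was 24.8% in Ocn and 17.0% in Prx1, against 3.66% and 6.23%. The Ocn values rested on Ocn 3, without which they were 19.2% for miR-148a-3p, 10.8% for miR-148b-3p and 15.6% for miR-152-3p (n = 5). Each was then below that of Prx1, but no Prx1 library was left out (n = 10). The groups were thus not treated alike, and the order of their spreads was not tested. Per library, the counts ran from 5905 to 18681 in Ocn and from 2549 to 9846 in Prx1 for miR-148a-3p, and from 429 to 1582 in Ocn and from 117 to 619 in Prx1 for the other members.

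The comparison of Ocn with Prx1 asked whether EVs captured with the osteoblast driver carried more or less of the family than those captured with the limb mesenchyme driver. With edgeR's quasi-likelihood test on the counts and Benjamini-Hochberg adjustment over all 234 microRNAs tested, 0 of the 3 members passed an adjusted p of 0.05. Over all tested microRNAs 13.7% passed, 14 higher and 18 lower in Ocn (26 and 11 with upper quartile scaling). At an unadjusted p under 0.05, 1 of the 3 members passed, miR-152-3p, where 26.5% of all tested microRNAs did. Among the 234 it ranked 50 by p and 88 by the size of its log2 fold change.

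For miR-152-3p the level was 1.25-fold higher in Ocn, with a 95% interval of 1.03 to 1.52. Its log2 fold change was 0.32 (SE 0.13, edgeR p = 0.0248, adjusted p = 0.116). Across the alternatives its log2 fold change stayed between 0.27 and 0.47 and its adjusted p between 0.0445 and 0.246, with edgeR, DESeq2 and limma voom. The single adjusted p under 0.05 came with upper quartile scaling, where the log2 fold change was 0.42 while the median of all microRNAs moved to 0.13, against 0.01 with TMM scaling. Without Ocn 3 the log2 fold change was 0.27 (edgeR adjusted p = 0.231). With log10 of the total added to the fit as a covariate for depth, it was 0.47 (SE 0.21, edgeR adjusted p = 0.219).

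For miR-148a-3p the fold was 1.15 in Ocn over Prx1, with a 95% interval of 0.852 to 1.55. Its log2 fold change was 0.20 (SE 0.21, edgeR adjusted p = 0.585), and without Ocn 3 it was -0.05 (SE 0.17, edgeR adjusted p = 0.893). For miR-148b-3p the fold was 1.03, with a 95% interval of 0.815 to 1.30, and the log2 fold change of 0.04 (SE 0.16, edgeR adjusted p = 0.879) became -0.07 without Ocn 3. The intervals leave room for differences of about that size in either direction, so equal levels of miR-148a-3p and miR-148b-3p were not shown. Whether the response of miR-152-3p differed from that of its relatives was not tested. The median log2 fold change of the 3 members was 0.20, beside 0.01 over all microRNAs tested, and without Ocn 3 it was -0.05, beside 0.05.

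**Figure D2:**
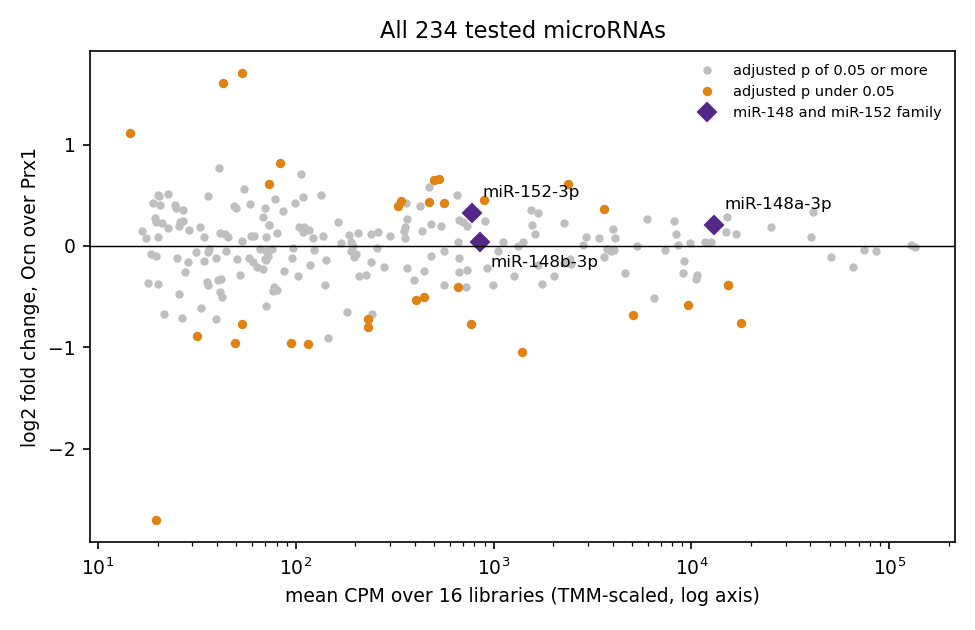
Log2 fold change of Ocn over Prx1 (vertical axis) against mean TMM-scaled CPM over 16 libraries (horizontal log axis) for the 234 microRNAs tested, with the family as diamonds and the 32 microRNAs past an adjusted p of 0.05 in orange. The 3 members lie at 0.20, 0.04 and 0.32, among the grey points that did not pass.

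Together the 3 members took 1.64% ± 0.83 of the counts of a library in Ocn (SD, n = 6), against 1.37% ± 0.28 in Prx1 (SD, n = 10), with 3.29% in Ocn 3 as the highest share. Without Ocn 3 the Ocn mean was 1.31% ± 0.22 (SD, n = 5), below that of Prx1. Most counts of strands with the shared seed were those of miR-148a-3p. That member made up 88.2% ± 2.4 of the family's counts in Ocn and 88.5% ± 2.1 in Prx1, with all 16 libraries between 85.6% and 91.9%. The share of miR-148b-3p was 5.73% ± 1.04 in Ocn and 6.27% ± 1.84 in Prx1. The share of miR-152-3p was 6.06% ± 1.51 in Ocn and 5.24% ± 0.85 in Prx1.

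The 2 lesser members were neighbours in abundance, at ranks 66 and 67 by mean CPM over all libraries. miR-152-3p had more counts than miR-148b-3p in 3 of 6 Ocn libraries and in 3 of 10 Prx1 libraries. The ratio of miR-152-3p to miR-148b-3p counts averaged 1.05 ± 0.18 in Ocn (SD, n = 6), against 0.896 ± 0.297 in Prx1 (SD, n = 10), with ranges of 0.861 to 1.32 and 0.559 to 1.55. The order of these neighbours thus varied from library to library and lay within the spread. They stood between miR-99a-5p (899 ± 221 CPM, SD over 16 libraries) and miR-423-5p (764 ± 221 CPM).

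**Figure D3:**
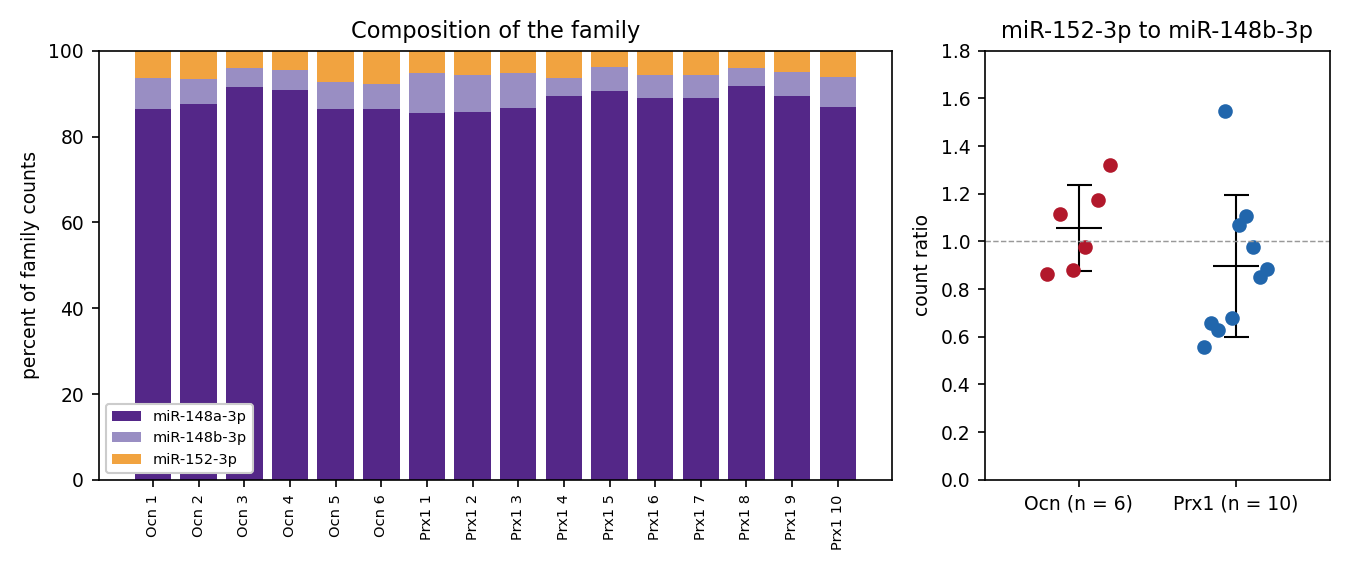
Left, share of each member in the family's counts in every library, as stacked bars that sum to 100%. Right, ratio of miR-152-3p to miR-148b-3p counts per library with the mean ± SD, Ocn (red, n = 6) and Prx1 (blue, n = 10), and a dashed line at a ratio of 1. miR-148a-3p holds 85.6% to 91.9% of the family in all 16 libraries, while the ratio on the right runs from 0.559 to 1.55.

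In Ocn 3 all 3 members were above the other Ocn libraries. miR-148a-3p was there 2.62 times the mean of the other 5 Ocn libraries, miR-148b-3p 1.94 times and miR-152-3p 1.57 times. By difference in CPM, a measure that favours abundant microRNAs, the excess of miR-148a-3p (18597 CPM) was second among all entries of the table. The largest was that of miR-142a-3p, known from haematopoietic cells, which had 77658 CPM in Ocn 3 and 30437 to 40283 CPM in the other Ocn libraries. The largest deficit in CPM was that of let-7f-5p, with 94398 CPM in Ocn 3 against 136538 ± 9571 CPM in the others (SD, n = 5), named here after its value was seen. As a ratio to the mean of the others it was 0.691. For let-7a-5p, also named after its value was seen, the deficit in CPM was smaller but the ratio was 0.488. Summed over 3 myeloid and pan-leukocyte microRNAs, of which miR-142a-3p is the most abundant, Ocn 3 had 94359 CPM, the other Ocn libraries 39067 to 53468 CPM and Prx1 42090 to 68987 CPM. Most of that sum was miR-142a-3p itself, so the sum is not a separate result. In Ocn 3, miR-142a-5p had 6726 CPM, above the highest Prx1 value of 5603 CPM. miR-223-3p had 9975 CPM there, within the Prx1 range of 6976 to 14667 CPM. Ocn 3 was also the highest Ocn library for the liver, erythroid, lymphoid and stromal sums, but not for the endothelial sum. Not all microRNAs in these sums went that way. Of the stromal list, miR-214-3p (160 CPM) and miR-145a-5p (51.5 CPM) were lowest in Ocn 3 among the Ocn libraries. Both are named here after their values were seen. Of the liver list, miR-122-5p was highest in Ocn 6. The part of other cells in the family's level in Ocn 3 was not tested.

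The libraries held microRNAs known from several cell types in both groups. Libraries without Cre were not analysed here, so whether the captured vesicles carried all of them was not tested. The most abundant stromal microRNA of the list, miR-199a-3p, averaged 17865 ± 1678 CPM in Ocn, against 16121 ± 1355 CPM in Prx1 (SD, n = 6 and 10), and the sum of the 5 stromal microRNAs ran from 31426 to 43032 CPM in Ocn and from 26518 to 34989 CPM in Prx1. The sum of 4 erythroid microRNAs, led by miR-486a-5p, ran from 14654 to 27749 CPM in Ocn and from 18434 to 27471 CPM in Prx1. The sum of the lymphoid pair, led by miR-342-3p, ran from 2019 to 4495 CPM in Ocn and from 2780 to 5828 CPM in Prx1. The endothelial sum, mostly miR-126a-3p, ran from 16712 to 20837 CPM in Ocn and from 12913 to 19289 CPM in Prx1. Of these lists, 1 of 5 stromal microRNAs passed as higher in Ocn (miR-199a-5p), 1 of 4 erythroid (miR-486a-5p) and 1 of 2 lymphoid (miR-150-5p) passed as lower, and 0 of 3 myeloid and pan-leukocyte, 2 endothelial and 2 tested liver microRNAs passed with edgeR, also at an unadjusted p under 0.05. Over all tested microRNAs 5.98% passed as higher, 7.69% as lower, and 26.5% had an unadjusted p under 0.05. The erythroid list did not move as 1: 3 of its 4 log2 fold changes were above 0, with a median of 0.20. Among them was miR-144-3p, at 0.58 (SE 0.20, edgeR adjusted p = 0.0569). Nor did the stromal list, with 3 of its 5 log2 fold changes above 0 and a median of 0.11. Below 0 were miR-214-3p (-0.29) and miR-145a-5p (-0.19), and neither passed with edgeR.

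Liver was looked at separately because its cells hold much miR-148a. miR-122-5p, the defining microRNA of hepatocytes, had 555 counts (1644 CPM) in Prx1 5 and at most 19 counts in any other library, and the sum of the 3 liver microRNAs ran from 232 to 396 CPM in Ocn and from 197 to 2005 CPM in Prx1. The most abundant liver microRNA by mean, miR-192-5p, averaged 191 ± 55.9 CPM in Ocn, against 192 ± 56.5 CPM in Prx1. miR-148a-3p had 15759 CPM in Prx1 5, close to the highest Prx1 value of 16500 CPM in Prx1 8. Without Prx1 5 its log2 fold change was 0.23 (edgeR adjusted p = 0.528).

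Fold changes of the members were next set side by side with each library left out or a setting changed. The direction of miR-152-3p was the same in all 29 alternatives. That of miR-148a-3p turned without Ocn 3 and with voom, run here with quality weights that down-weight variable libraries. That of miR-148b-3p turned in 5 alternatives, the omission of Ocn 3 or of Prx1 4 among them.

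**Figure D4:**
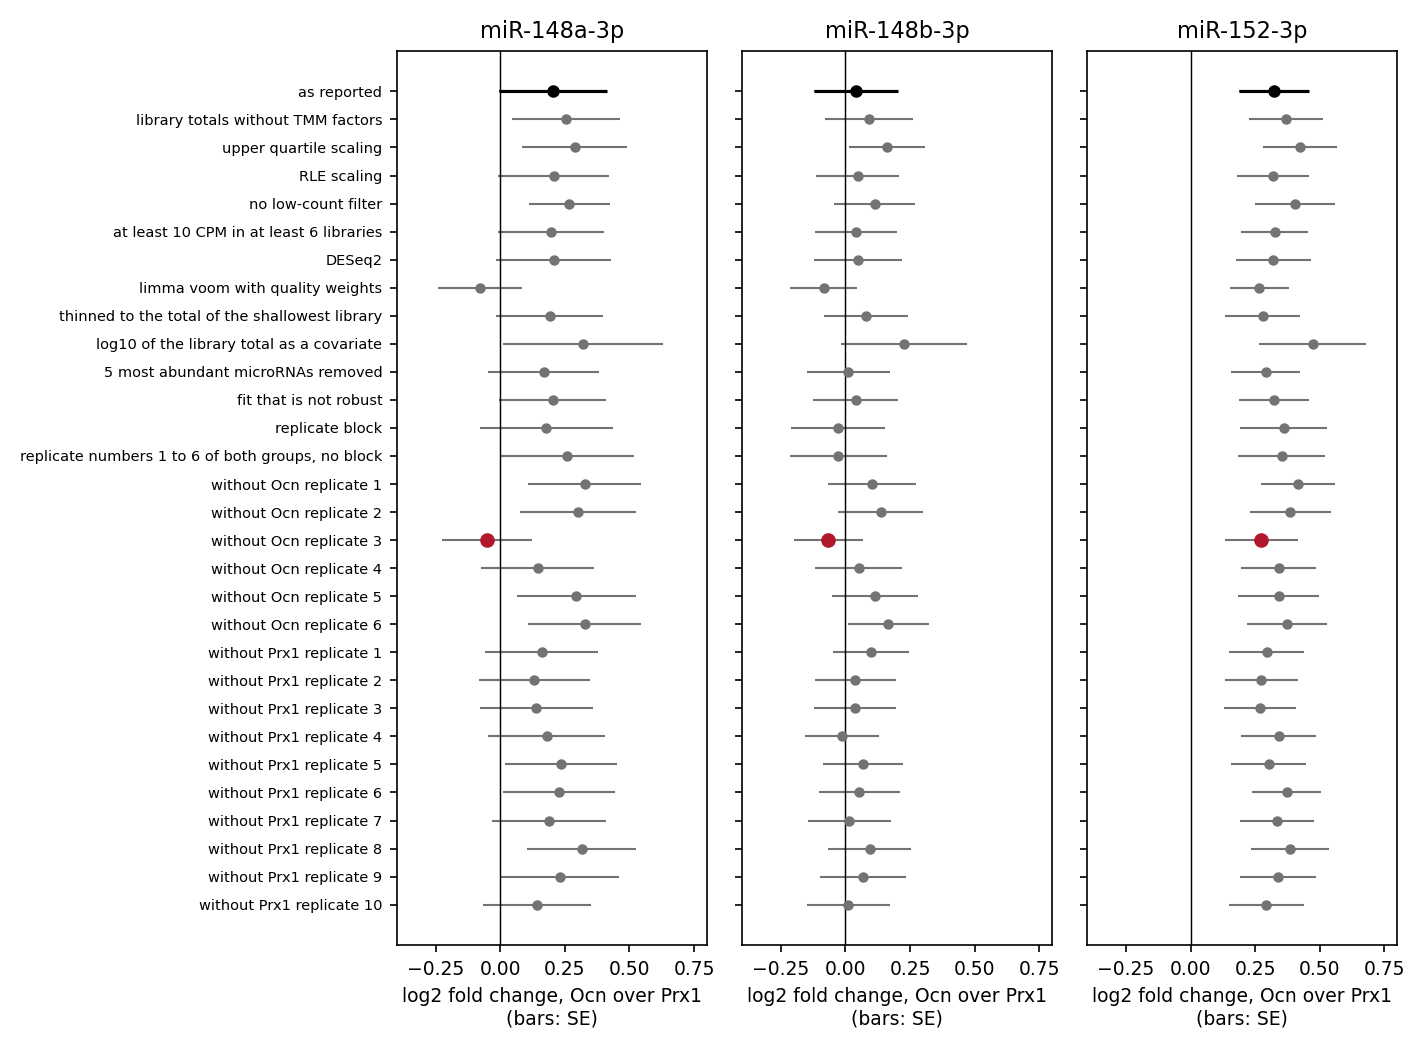
Log2 fold change of Ocn over Prx1 with its SE for each member, as reported (black), under each other setting and with each library left out (grey). The fit without Ocn replicate 3 is in red and lies at -0.05, -0.07 and 0.27, while all fits of miR-152-3p lie between 0.27 and 0.47.

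Relations between the members were taken within a group, and none of 12 passed the adjustment. In Prx1 (n = 10) the log2 CPM of miR-148a-3p and miR-152-3p had a Pearson r of 0.57 (permutation p = 0.0851, adjusted p = 0.255) and a Spearman rho of 0.71 (permutation p = 0.0269, adjusted p = 0.322). Without the 2 libraries farthest from the median of miR-148a-3p, r was 0.87. In Ocn (n = 6) the same pair had an r of 0.77 (exact permutation p = 0.0667, adjusted p = 0.255) and a rho of 0.60 (exact permutation p = 0.242, adjusted p = 0.798), and r was 0.81 without the 2 farthest libraries.

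For miR-148a-3p and miR-148b-3p, which differ by 2 bases, r in Prx1 was -7.9e-05 (permutation p = 1.00, adjusted p = 1.00) and rho was 0.03 (permutation p = 0.945, adjusted p = 1.0). In Ocn their r was 0.91 (exact permutation p = 0.0542, adjusted p = 0.255) and their rho 0.54 (exact permutation p = 0.297, adjusted p = 0.798), with an r of 0.62 without the 2 farthest libraries, of which Ocn 3 is one. For miR-152-3p and miR-148b-3p, r was 0.81 in Ocn (exact permutation p = 0.0639, adjusted p = 0.255) and -0.36 in Prx1 (permutation p = 0.306, adjusted p = 0.709). The rho was 0.43 in Ocn (exact permutation p = 0.419, adjusted p = 0.839) and -0.42 in Prx1 (permutation p = 0.231, adjusted p = 0.798). Without the 2 libraries farthest from the median of miR-152-3p, r was -0.91 in Ocn, with 4 left, and -0.53 in Prx1, with 8 left. The positive r in Ocn was thus not kept, though 4 libraries are too few to show a relation. All these relations used CPM of library totals, and rho moved with the scaling. With TMM-scaled CPM it was 0.83 in Ocn and 0.20 in Prx1 for miR-148a-3p with miR-148b-3p. For miR-148b-3p with miR-152-3p it was 0.31 and -0.07, and for miR-148a-3p with miR-152-3p 0.60 and 0.65.

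Depth within a group was set against each member too. The r of log10 library total with miR-148a-3p was -0.26 in Ocn (exact permutation p = 0.689, adjusted p = 0.919) and 0.17 in Prx1 (permutation p = 0.639, adjusted p = 0.919). With miR-152-3p it was -0.07 in Ocn (exact permutation p = 0.885, adjusted p = 1.00) and -0.33 in Prx1 (permutation p = 0.355, adjusted p = 0.709). With miR-148b-3p it was -0.32 in Ocn (exact permutation p = 0.624, adjusted p = 0.919) and 0.02 in Prx1 (permutation p = 0.958, adjusted p = 1.00). The corresponding rho values ran from -0.35 to 0.15, with a smallest adjusted permutation p of 0.798. Without the 2 libraries farthest from the median total, r ran from -0.52 to 0.72 over these 6 relations.

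The microRNAs whose levels followed each member most closely over the 16 libraries differed between the members. By the Spearman rho of TMM-scaled log2 CPM against the 233 other tested microRNAs, those closest to miR-148a-3p were miR-196b-5p (0.81), miR-101a-3p (0.68) and miR-140-5p (0.59). miR-196b lies in a Hox cluster and miR-140 is known from cartilage. miR-196b-5p averaged 2326 ± 751 CPM in Ocn, against 2477 ± 641 CPM in Prx1 (SD, n = 6 and 10). Closest to miR-152-3p were miR-190a-5p (0.89), miR-143-3p (0.76) and miR-145a-3p (0.75). For miR-145a-3p the rho was -0.03 within Ocn (n = 6) and 0.61 within Prx1 (n = 10), so the relation over all libraries was not seen within Ocn. For miR-143-3p, known from smooth muscle and stromal cells, it was 0.89 within Ocn and 0.66 within Prx1. miR-143-3p averaged 17283 ± 3196 CPM in Ocn, against 13794 ± 1835 CPM in Prx1. Closest to miR-148b-3p were miR-7a-5p (0.72), miR-30e-5p (0.59) and miR-192-5p (0.56). Among the members themselves rho was 0.51 for miR-148a-3p with miR-152-3p, 0.33 for miR-148a-3p with miR-148b-3p and 0.00 for miR-148b-3p with miR-152-3p. miR-152-3p was thereby at place 9 among the microRNAs nearest to miR-148a-3p, and miR-148b-3p was at place 24. These values describe libraries that share their depth and driver differences.

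Opposite strands of the 3 hairpins were rare in the libraries. The 5p strand made up 0.0598% of the miR-148a counts in Ocn and 0.0716% in Prx1, with 3 to 10 counts of miR-148a-5p per Ocn library and 2 to 7 per Prx1 library. For miR-152 the 5p share was 0.917% in Ocn and 0.986% in Prx1. miR-152-5p had 4 to 15 counts per Ocn library and up to 6 per Prx1 library, with 0 in Prx1 7, where 3 counts, taken as the limit that a count of 0 allows, would be 7.62 CPM. For miR-148b the 5p share was larger, at 2.78% in Ocn and 3.28% in Prx1, and the strand had 12 to 40 counts per Ocn library and 5 to 23 per Prx1 library.

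miR-148b-5p alone among these strands passed the filter. It averaged 24.6 ± 6.9 CPM in Ocn (SD, n = 6), against 29.3 ± 11.3 CPM in Prx1 (SD, n = 10), with a log2 fold change of -0.25 (SE 0.24, edgeR adjusted p = 0.556). The log2 ratio of its 5p to its 3p counts averaged -5.14 ± 0.51 in Ocn and -4.82 ± 0.75 in Prx1. The difference of -0.32 (SE 0.32) did not pass (limma adjusted p = 0.524), where 6.82% of 44 hairpins with both strands tested did.

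Other microRNAs reported to act on osteoclast formation were set beside miR-148a. Of 6 reported to promote it beside miR-148a, all were tested, 0 were higher and 1 was lower in Ocn, where 5.98% of all tested microRNAs were higher and 7.69% lower. The lower one was miR-133a-3p, also a muscle microRNA, at 3743 ± 621 CPM in Ocn, against 5870 ± 1661 CPM in Prx1 (log2 fold change -0.68, SE 0.16, edgeR adjusted p = 0.00819). With the depth covariate its edgeR adjusted p was 0.191. The most abundant was miR-21a-5p, at 13044 ± 2159.9 CPM in Ocn, against 12330.1 ± 2031 CPM in Prx1 (log2 fold change 0.04, SE 0.12). The median log2 fold change of the 6 was -0.06, beside 0.01 over all tested.

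Of 10 microRNAs reported to restrain osteoclast formation, 8 were tested, 1 was higher and 0 were lower in Ocn. The higher one was miR-218-5p, at 392 ± 61.7 CPM in Ocn, against 290.2 ± 30.2 CPM in Prx1 (log2 fold change 0.39, SE 0.12, edgeR adjusted p = 0.0283). This call was lost in 10 of 29 alternatives, with edgeR adjusted p up to 0.347 with the depth covariate, and up to 0.0893 without any one of Ocn 4, Prx1 1, Prx1 2, Prx1 3, Prx1 5 and Prx1 10. The most abundant was miR-26a-5p, at 27824 ± 2057 CPM in Ocn, against 23900 ± 775 CPM in Prx1 (log2 fold change 0.19, SE 0.08, edgeR adjusted p = 0.154). It passed in 3 of 29 alternatives, with an edgeR adjusted p of 0.0373 without Ocn 3. The median log2 fold change of the 8 was 0.22, with 6 of 8 above 0, and the list was not tested as a whole.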

How the data were processed

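The deposited table holds raw counts of 1915 mature microRNAs in 16 libraries, with no normalization by the authors; all values are whole and column totals differ. Libraries were made from 1 ng of RNA with the QIAseq miRNA kit, per the labels' protocols. cutadapt 1.18 and the build mm10 were used, per the submitters' processing notes. The sources used here do not name the aligner or the counter, nor say whether reads or molecular identifiers were counted, so intervals and floors cover counting error only.

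After filterByExpr, 234 entries were tested with edgeR 4.0.16 in R 4.3.3 (TMM, robust quasi-likelihood fit, group as the only term), and intervals are the log2 fold change ± its SE times the t quantile. SE is the log2 fold change over the square root of F. Strand ratios (0.5 added to each count) were tested with limma 3.58.1. Correlations used log2(CPM + 1) of library totals, with exact or 100000 permutations and adjustment over 12 relations. Alternatives included DESeq2 1.42.0, limma voom with quality weights (called voom), other scalings and filters, thinning to 225273 counts and each library left out. The test was tried on simulated counts. Labels do not say whether each library is 1 mouse, although the design gives as many mice, and p-values measure the spread between libraries. No library repeated another of its own group: over 60 such pairs, chi-square per degree of freedom was at least 5.54. The members and lists were chosen with earlier results of these data known. Named besides the members were their other strands, the 3 microRNAs nearest to each by Spearman rho, their neighbours in abundance, called and most abundant members of the osteoclast lists, and the most abundant member of each cell type list with miR-122-5p.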

Additional observations from a re-analysis of the deposited data

Results flagged for a closer look

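In Ocn 3, miR-148a-3p reached 30059 CPM and miR-148b-3p 1486 CPM, each farther above the other 5 Ocn libraries than Dixon's 95% limit allows, with gaps of 0.739 and 0.732 of the group's range against a limit of 0.625. The sum of the 3 members in Ocn 3, 32851 CPM, passed the same limit with a gap of 0.755. Of that sum 91.5% was miR-148a-3p itself, so the sum is not a separate result. miR-152-3p in Ocn 3, at 1306 CPM, did not, with a gap of 0.453. The 3 flagged values came from 10 groups of values examined and share a single library. Chance alone marks about 1 group in 20, but the flags are not independent, so their number cannot be set against that share.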

How the results depend on the processing

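The fold changes of the members were not past the threshold in any of 29 alternatives each, with the exception of miR-152-3p under upper quartile scaling (log2 fold change 0.42, edgeR adjusted p = 0.0445), which moved the median of all microRNAs to 0.13. miR-148a-3p turned to -0.078 and miR-148b-3p to -0.084 with voom. miR-148b-3p was also at -0.030 with the replicate block and at -0.027 with the same 12 libraries without it, an alternative chosen after seeing the data. With each library left out, miR-148a-3p ran from -0.050 to 0.33, miR-148b-3p from -0.066 to 0.17 (-0.013 without Prx1 4), miR-152-3p from 0.27 to 0.42, and the miR-148b strand ratio from -0.45 to -0.14. miR-21a-5p was at -0.0058 with voom, -0.031 with the block and -0.027 with the same libraries unblocked, and ran from -0.0046 (without Prx1 10) to 0.11 with a library left out. The number of calls, 32, became 0 with edgeR and the log10 library total as a covariate (40 at an unadjusted p under 0.05), and ran from 24 to 36 with a library left out. Pairing of the libraries by replicate number was not shown, though 6 pairs are too few to exclude it. Correlations of deviations in same-numbered pairs ran from 0.015 to 0.22, with 2 of 6 above 0.1. Of the Ocn libraries, 0 of 6 correlated best with their own number, and the replicate block gave 27 calls, against 28 without it. The strand ratios of miR-148a and miR-152 were given as counts with no alternatives, since a strand of each was below the filter. Depth limits the 5p strands most.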

Other observations

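The 7 letters of the family's seed also occur at bases 1 to 7 of 7 other mature microRNAs in the RefSeq table, a shift of 1 base, and 3 of these were tested, all from the miR-130 and miR-301 family. None passed with edgeR. miR-130a-3p averaged 135 ± 25.5 CPM in Ocn, against 93.2 ± 23.0 CPM in Prx1 (SD, n = 6 and 10; log2 fold change 0.48, SE 0.17, edgeR adjusted p = 0.0569), far below miR-148a-3p in level.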
